A study of Mus musculus with 16 samples.

Results

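Genes of meningeal fibroblasts and their extracellular matrix were followed across 16 libraries of mouse brain. The 8 genes are Col1a1, Col1a2, Col3a1, Dcn, Bgn, Ogn, Mgp and Slc6a13, 8 of the 43472 gene symbols counted, and they were found by symbol. All 8 had reads in all 16 libraries and all 8 passed the filter on low counts in every comparison. The libraries fall into 4 groups of 4, of which 2 are mutants, each with its own wild type (WT). Prepl knockout brain lacks the function of Prepl, which encodes prolyl endopeptidase-like, a serine hydrolase, and was set against WT brain collected as its control. PWS-IC deleted brain lacks an imprinting centre that switches on paternally inherited genes around it in the Prader-Willi region, and was set against WT brain collected as its own control. The labels give no age, strain, sex, brain region or parent of origin for the deleted allele. The question was how alike the 2 models are, as models of a congenital myasthenic syndrome and of Prader-Willi syndrome. Nothing in the labels says that each replicate is its own animal, so the p-values cover variation among these samples, which may be technical.

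The meninges wrap the brain, and their fibroblasts lay down a matrix of fibrillar collagen dressed with small proteoglycans. Type I collagen is a triple helix of chains made by Col1a1 and Col1a2, and type III collagen is built from Col3a1 chains alone. In brain tissue these fibroblasts lie in the pia and arachnoid and around larger vessels, so what a bulk library holds of them also follows how much of these membranes stays on the tissue. In bulk RNA, fewer fibroblasts and less RNA per fibroblast cannot be told apart.

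The sequences of the 3 collagen genes are shown because, together with Dcn, they are the members found lower in PWS-IC deleted brain. A collagen helix needs glycine at steps of 3 residues, and glycine codons start with GG. The first 90 bases of the longest unbroken run of such codons are given for each, 5′ to 3′ on the coding strand, from GENCODE M21 transcripts. Capitals mark the glycine codons that recur at that step.
Col1a1: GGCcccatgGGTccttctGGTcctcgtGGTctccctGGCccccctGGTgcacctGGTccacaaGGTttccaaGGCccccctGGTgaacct
Col1a2: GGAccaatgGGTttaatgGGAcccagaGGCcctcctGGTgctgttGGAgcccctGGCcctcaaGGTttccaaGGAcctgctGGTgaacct
Col3a1: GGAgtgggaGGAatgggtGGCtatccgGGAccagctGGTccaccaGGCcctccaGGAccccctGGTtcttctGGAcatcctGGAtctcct
The whole run held 338 such codons in Col1a1, 339 in Col1a2 and 344 in Col3a1, which is 69.8%, 74.1% and 70.5% of their coding bases. In the remaining 5 members no run was longer than 1. Of 21793 genes with a coding sequence, 8 had a run at least as long as that of Col1a1, and none had a longer one than Col3a1.

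Promoters of 5 of the 8 members were in the RefSeq table for GRCm38.p6, and those of the 2 collagen genes among them are shown as the 250 bases before the start that RefSeq annotates. For Col1a2 that start lies inside the gene as GENCODE M21 spans it, so the annotations differ on where the gene begins. Capitals mark a TATA box, searched as TATAAA. They also mark a CCAAT box, searched by the letters of its name, and a GC box. The GC box was searched as GGGCGG, and all motifs on both strands.
Col1a2, chr6:4505368-4505617, plus strand: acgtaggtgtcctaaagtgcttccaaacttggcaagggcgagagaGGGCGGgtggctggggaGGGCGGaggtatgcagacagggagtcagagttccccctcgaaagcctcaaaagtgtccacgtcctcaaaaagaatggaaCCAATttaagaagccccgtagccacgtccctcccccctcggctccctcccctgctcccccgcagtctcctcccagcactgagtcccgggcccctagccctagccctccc
Col3a1, chr1:45311288-45311537, plus strand: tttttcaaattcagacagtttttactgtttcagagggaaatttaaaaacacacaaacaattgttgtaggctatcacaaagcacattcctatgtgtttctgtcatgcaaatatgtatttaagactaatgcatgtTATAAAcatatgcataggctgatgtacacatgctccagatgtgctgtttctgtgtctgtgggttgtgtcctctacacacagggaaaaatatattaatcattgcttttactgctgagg
The Col1a2 window held 1 CCAAT box and 2 GC boxes and had 62.0% G and C, while the Col3a1 window held 1 TATA box and had 35.2% G and C. Across 32851 promoter windows of that length, 12.4% held the TATA box, 33.8% the CCAAT box and 32.7% the GC box. These matches describe letters only.

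On GRCm38 the members are scattered over 5 autosomes and the X chromosome. In GENCODE M21, Col3a1 spans chr1:45311538-45349706, Dcn chr10:97479609-97518143 and Col1a1 chr11:94936224-94953042, all on the plus strand. Chromosome 6 holds Col1a2 at chr6:4504814-4541544 and Slc6a13 at chr6:121300227-121337733 on the plus strand, and Mgp at chr6:136872435-136875823 on the minus strand. Bgn lies on the X chromosome at chrX:73483602-73495933, plus strand. Ogn at chr13:49608046-49624501, plus strand, lies inside a stretch that Cenpp covers on the opposite strand. The strand setting of the counting is not given in the sources used here, so reads of Ogn and Cenpp cannot be told apart with certainty. Cenpp had 3.61 to 6.61 CPM in PWS-IC deleted libraries, against 3.43 to 4.44 CPM in their WT.

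Each library held 3477624 to 5852716 reads in genes, and levels are given as CPM, counts scaled to a common total of reads in genes. The libraries are 3′ QuantSeq, which reads transcript ends, so a CPM does not scale with transcript length. Prepl had 1.17 to 2.18 CPM in Prepl knockout libraries, against 33.6 to 36.5 CPM in their WT. Ndn, an imprinted gene of the Prader-Willi region, had 2.17 to 6.56 CPM in PWS-IC deleted libraries, against 543 to 566 CPM in their WT. By Xist and Y-linked genes, all 4 Prepl knockout libraries were male, against 1 of 4 of their WT, while the PWS-IC deleted and WT groups each held 2 male and 2 female libraries. Reads outside genes made up 17.7% to 20.1% of tabled reads in PWS-IC deleted libraries, against 11.4% to 13.7% in their WT, without overlap. In the Prepl comparison that share was 16.1% to 19.2% in knockout libraries, against 15.98% to 19.6% in WT.

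Among the members Col1a2 was the most abundant in all 4 groups and Ogn the least. Over 16 libraries Col1a2 averaged 134 CPM, above 94.6% of the genes detected, and Ogn averaged 9.69 CPM, above 63.5%. Between them, Col3a1 (67.1 CPM), Col1a1 (60.6 CPM) and Dcn (42.8 CPM) formed a middle tier. Slc6a13 (21.6 CPM), Bgn (21.0 CPM) and Mgp (14.2 CPM) followed. Col1a1 and Col3a1 changed places between groups, as did Bgn and Slc6a13, and the ranges of each of these pairs overlapped in Prepl knockout libraries. Dcn held rank 4 and Mgp rank 7 in every group. Fibroblast genes outside the 8 were present too: Foxc1, a transcription factor needed for the meninges to form, had 13.3 to 34.0 CPM, and Aldh1a2, a retinoic acid synthase, had 5.29 to 11.02 CPM. Of the 45 other meningeal fibroblast genes, none was at 0 in every library. The 9 bone and cartilage markers together had at most 7.40 CPM in any library. Bglap2 was at 0 in all 16, and Runx2 reached 3.45 CPM. Whether skull tissue added to the collagen reads was not tested.

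**Figure D1:**
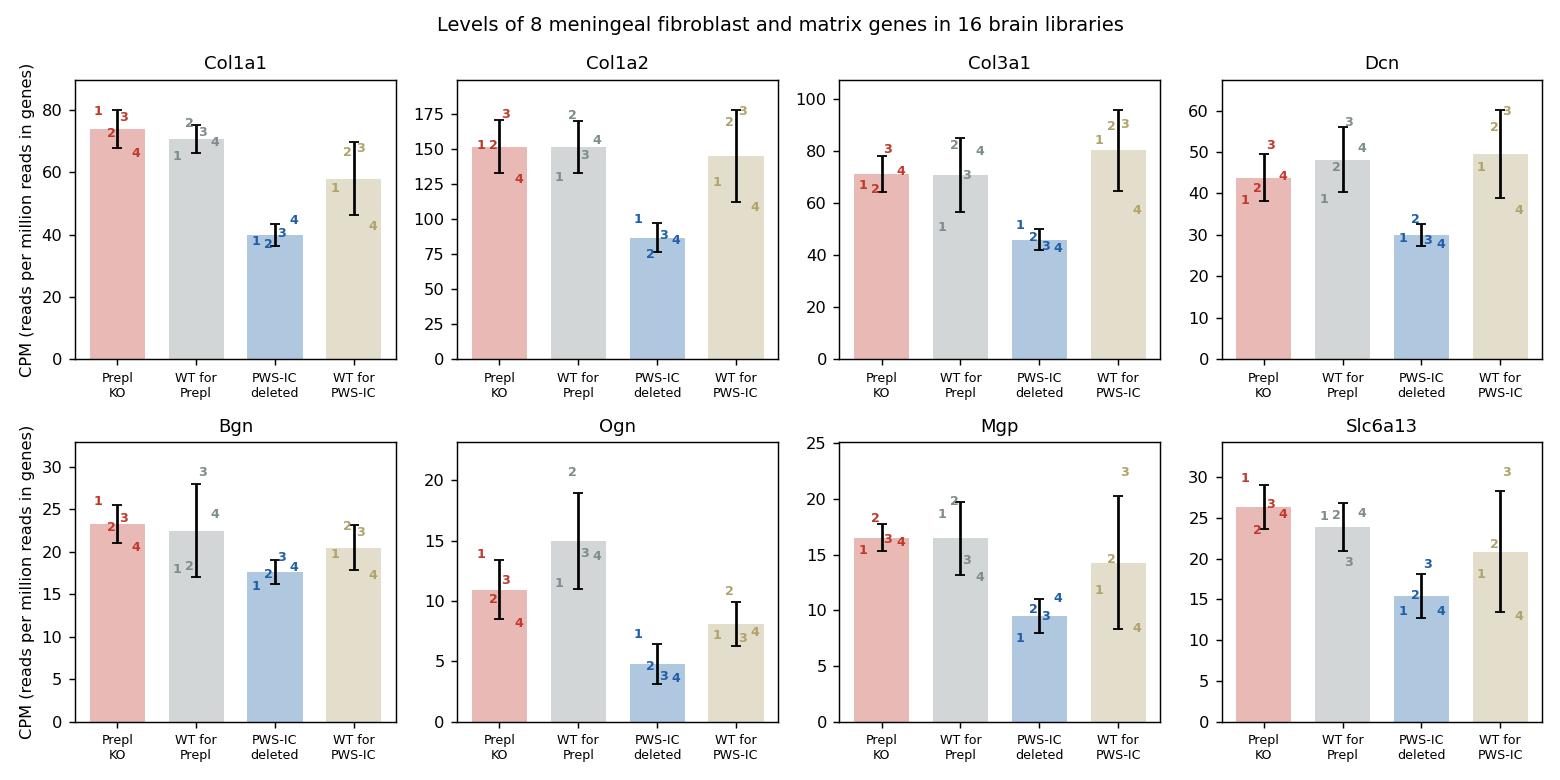
CPM of each of the 8 genes (vertical axis) in the 4 groups. Bars are means, error bars SD over 4 libraries, and digits the replicate numbers; the 4 PWS-IC deleted libraries lie below every WT library of their comparison for Col1a2, Col3a1 and Dcn.

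The main difference lay in PWS-IC deleted brain, where 4 of the 8 genes were lower than in WT and none was higher. Col1a1, Col1a2, Col3a1 and Dcn fell by 30.7% to 42.6%, and the remaining 4 genes did not pass the test. Of all 13636 genes tested in that comparison, 1.55% were called lower and 4.51% called in either direction at an adjusted p under 0.05 (edgeR's quasi-likelihood test with Benjamini-Hochberg adjustment). All 8 log2 fold changes were below 0, with a median of -0.65, beside 52.4% of all genes below 0 and a median of -0.01.

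Type III collagen gave the largest called change among the 8 genes. Col3a1 had 51.2, 46.7, 43.4 and 42.4 CPM in PWS-IC deleted libraries 1 to 4, against 84.2, 89.5, 90.5 and 57.1 CPM in WT libraries 1 to 4. All 4 deleted libraries lay below all 4 WT libraries, and WT library 4 stood well under the other WT libraries. Its log2 fold change was -0.80 ± 0.133 (SE, n = 4 each; edgeR adjusted p = 0.00151).

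For type I collagen, Col1a2, which encodes the alpha 2 chain, had 99.6, 74.5, 88.0 and 84.5 CPM in PWS-IC deleted libraries, against 126, 169, 177 and 109 CPM in WT libraries. The groups did not overlap, with deleted library 1 and WT library 4 the nearest to each other. The log2 fold change was -0.74 ± 0.132 (SE, n = 4 each; edgeR adjusted p = 0.00259). Col1a1, which encodes the alpha 1 chain, had 37.8, 36.9, 40.3 and 44.5 CPM in deleted libraries, against 54.8, 66.4, 67.7 and 42.6 CPM in WT libraries. Here the groups overlapped, since deleted library 4 exceeded WT library 4, and 3 of 4 deleted libraries lay below all WT libraries. The log2 fold change was -0.53 ± 0.135 (SE, n = 4 each; edgeR adjusted p = 0.0276).

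Among the small leucine-rich proteoglycans, Dcn encodes decorin, which binds collagen fibrils and limits their width. Dcn had 29.1, 33.7, 28.8 and 27.8 CPM in PWS-IC deleted libraries, against 46.3, 56.0, 59.9 and 35.98 CPM in WT libraries. All deleted libraries were below all WT libraries, and the log2 fold change was -0.73 ± 0.146 (SE, n = 4 each; edgeR adjusted p = 0.00640). Complete separation toward lower values thus held for 3 of the 8 members, beside 5.06% of all genes tested. Bgn encodes biglycan, the closest relative of decorin, and had 15.9, 17.3, 19.3 and 18.1 CPM in deleted libraries, against 19.6, 22.9, 22.2 and 17.1 CPM in WT libraries. The groups overlapped, with a log2 fold change of -0.21 ± 0.152 (SE, n = 4 each; edgeR adjusted p = 0.506).

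Ogn encodes osteoglycin, another proteoglycan of this family, and was the least abundant member. It had 7.22, 4.56, 3.74 and 3.62 CPM in PWS-IC deleted libraries, against 7.18, 10.8, 6.92 and 7.42 CPM in WT libraries. Deleted library 1 lay within the WT range and the other 3 lay below it. The log2 fold change was -0.75 ± 0.275 (SE, n = 4 each), as large as that of Dcn with a wider error, and did not pass (edgeR adjusted p = 0.134). Its deleted libraries rest on 13 to 30 reads each, the fewest of any member.

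Mgp encodes matrix Gla protein, an inhibitor of calcification. It had 7.46, 10.03, 9.49 and 11.04 CPM in PWS-IC deleted libraries, against 11.8, 14.6, 22.4 and 8.38 CPM in WT libraries. WT library 4 fell inside the deleted range, and the log2 fold change was -0.57 ± 0.248 (SE, n = 4 each; edgeR adjusted p = 0.220). Slc6a13 encodes a transporter for GABA and taurine found in meningeal fibroblasts. It had 13.5, 15.5, 19.3 and 13.5 CPM in deleted libraries, against 18.1, 21.8, 30.6 and 12.9 CPM in WT libraries. No deleted library lay below all WT libraries, and the log2 fold change was -0.44 ± 0.213 (SE, n = 4 each; edgeR adjusted p = 0.280).

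**Figure D2:**
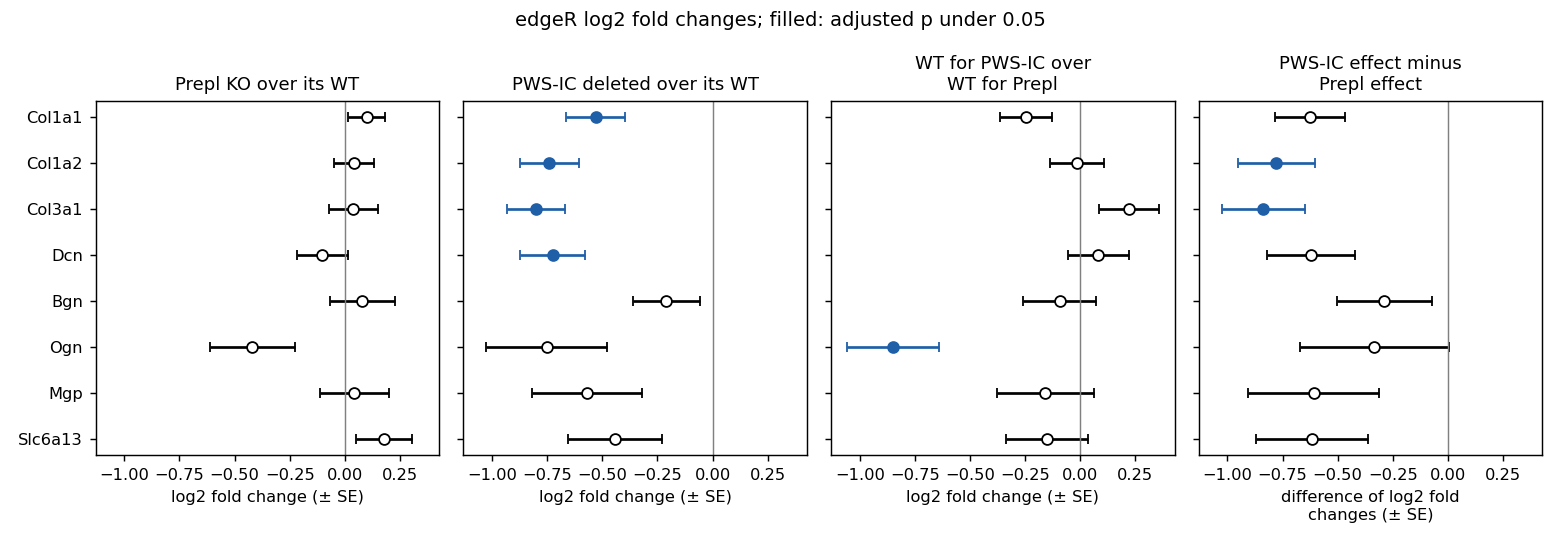
Log2 fold changes (horizontal axis, ± SE) of the 8 genes in each comparison, with filled blue points where the edgeR adjusted p is under 0.05. Filled points are Col1a1, Col1a2, Col3a1 and Dcn for PWS-IC deleted over its WT, Ogn between the WT groups, and Col1a2 and Col3a1 for the difference of the mutant effects.

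Summed over the 8 genes, PWS-IC deleted libraries held 262, 239, 252 and 246 CPM, against 369, 451, 477 and 290 CPM in WT libraries. The deleted libraries agreed closely with each other and the WT libraries did not. WT library 4 was the lowest of its group for 7 of the 8 genes, all but Ogn, and WT library 3 the highest for 6. Without WT library 4 the same count of 4 genes was called, and the log2 fold change of Col1a1 became -0.65. Col1a1 was no longer called when WT library 2 or 3, or deleted library 1, 2 or 3, was left out, with edgeR adjusted p up to 0.0992. Col1a2, Col3a1 and Dcn were called whichever library was left out. Within males alone (n = 2 each), the log2 fold changes of Col1a2, Col3a1 and Dcn were -0.76, -0.82 and -0.69, and within females alone (n = 2 each) -0.73, -0.78 and -0.76. In males the edgeR adjusted p of Dcn was 0.0592, and in females that of Col1a1 was 0.175 at a log2 fold change of -0.37.

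Among other meningeal fibroblast genes 1 passed the test. Of 38 tested in PWS-IC deleted against WT, 34 had a log2 fold change below 0, with a median of -0.30, 12 had an unadjusted p under 0.05, and 1 was called lower. Of all 13636 genes tested, 2483 had an unadjusted p under 0.05 and 1.55% were called lower. The called fibroblast gene was Igf2, a growth factor made by meninges and choroid plexus. It had 96.0, 99.2, 101 and 114 CPM in deleted libraries, against 179, 205, 235 and 133 CPM in WT libraries. The groups did not overlap, and the log2 fold change was -0.86 ± 0.128 (SE, n = 4 each; edgeR adjusted p = 0.000492). Summed over the 45 genes of that list, deleted libraries held 1306 to 1461 CPM, against 1353 to 2073 CPM in WT, and WT library 4 was again the lowest of its group. Much of that sum was Ptgds, Zic1 and Vim, which averaged 506, 302 and 281 CPM over all 16 libraries.

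Calls among other genes of the collagen pathway stand beside 1.55% of all genes called lower and 4.51% called in either direction. None of 7 other fibrillar collagen genes tested was called by edgeR, DESeq2 or limma voom, with a median log2 fold change of -0.07 and 1 at an unadjusted p under 0.05. Of 26 genes that modify, fold, trim or cross-link collagen, 1 was lower, with a list median of -0.10 and 4 at an unadjusted p under 0.05. It was Lox, the lysyl oxidase that starts cross-linking, with 1.68, 1.82, 2.01 and 3.11 CPM in PWS-IC deleted libraries, against 5.64, 4.35, 7.83 and 3.43 CPM in WT libraries. Its groups did not overlap, and its log2 fold change was -1.25 ± 0.342 (SE, n = 4 each; edgeR adjusted p = 0.0406), a call kept in 3 of 8 fits that left out 1 library and not made by limma voom. None of 7 other small leucine-rich proteoglycans tested was called by edgeR, DESeq2 or limma voom, with a median of -0.23 and none at an unadjusted p under 0.05.

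Among 18 basement membrane genes tested, 1 was lower and none higher in PWS-IC deleted libraries, beside 1.55% of all genes called lower. Their median log2 fold change was -0.37, with 15 below 0 and 9 at an unadjusted p under 0.05. The called gene was Col4a1, a chain of the sheet-forming type IV collagen, with 70.5 ± 6.66 CPM in deleted libraries and 91.1 ± 6.68 CPM in WT libraries (SD, n = 4 each). Its log2 fold change was -0.36 ± 0.0985 (SE; edgeR adjusted p = 0.0404), and the call was kept in 3 of 8 fits that left out 1 library. No call was made by edgeR, DESeq2 or limma voom among 24 genes of TGF-beta and BMP signalling, where 4 had an unadjusted p under 0.05. The same held for 11 matrix proteases and their inhibitors, with 2 such genes, and for 5 other transporters of GABA, taurine, betaine or creatine, with 2.

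Some markers of other cells also differed between PWS-IC deleted and WT libraries. Choroid plexus epithelium markers summed to 452 to 1789 CPM in PWS-IC deleted libraries, against 1465 to 2249 CPM in WT. These sums overlapped, and all 12 markers had reads in both groups. WT libraries 1 to 4 held 1885, 2249, 1465 and 1589 CPM of them, the lowest in library 3, where the members were highest. Deleted library 4 held the 1789 CPM, against 452 to 637 CPM in the other deleted libraries. Among deleted libraries it was the lowest for Col3a1, Dcn, Ogn and Slc6a13 and the highest for Col1a1 and Mgp. Blood genes summed to 1206 to 1630 CPM in deleted libraries, against 1799 to 3973 CPM in WT, and all 7 had reads in both groups. The blood sum did not overlap between groups. In WT libraries 1 to 4 it was 3437, 3973, 2898 and 1799 CPM, beside 369, 451, 477 and 290 CPM for the members. WT library 4 was thus the lowest in both, while WT library 3 was the highest for the members alone. WT for Prepl libraries 1 to 4 held 1148, 661, 718 and 762 CPM of blood genes. Their member sums were 357, 462, 423 and 434 CPM. Of the genes tested, 3 of 11 choroid plexus markers and 4 of 6 blood genes were called lower and none higher. Among all genes tested, 1.55% were called lower. Of 8 fits that left out 1 library, 4 kept the call of Sostdc1, 3 that of Enpp2 and 2 that of Ttr. DESeq2 did not call Ttr. The blood calls, Hba-a1, Hba-a2, Hbb-bs and Hbb-bt, were kept in all 8.

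Among vascular markers edgeR called 1 gene, beside 1.55% of all genes called lower and 4.51% called in either direction. Endothelial markers summed to 181 to 183 CPM in PWS-IC deleted libraries, against 185 to 200 CPM in WT, with a median log2 fold change of -0.08. None of 12 was called by edgeR, 3 had an unadjusted p under 0.05, DESeq2 called 0 and limma voom 1. Pericyte and smooth muscle markers summed to 142 to 161 CPM in deleted libraries, against 158 to 176 CPM in WT, and 1 of 8 tested was called. That gene was Vtn, which encodes vitronectin, with 23.6 ± 3.51 CPM in deleted libraries and 37.5 ± 6.63 CPM in WT libraries (SD, n = 4 each), a log2 fold change of -0.67 ± 0.152 (SE; edgeR adjusted p = 0.0143). None of 6 arachnoid barrier markers, 8 neuron markers or 7 astrocyte markers was called by edgeR, with 1, 2 and 2 at an unadjusted p under 0.05; DESeq2 and limma voom called 1 neuron marker each. The part that choroid plexus, blood or the share of reads outside genes has in the lower fibroblast genes was not tested.

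**Figure D3:**
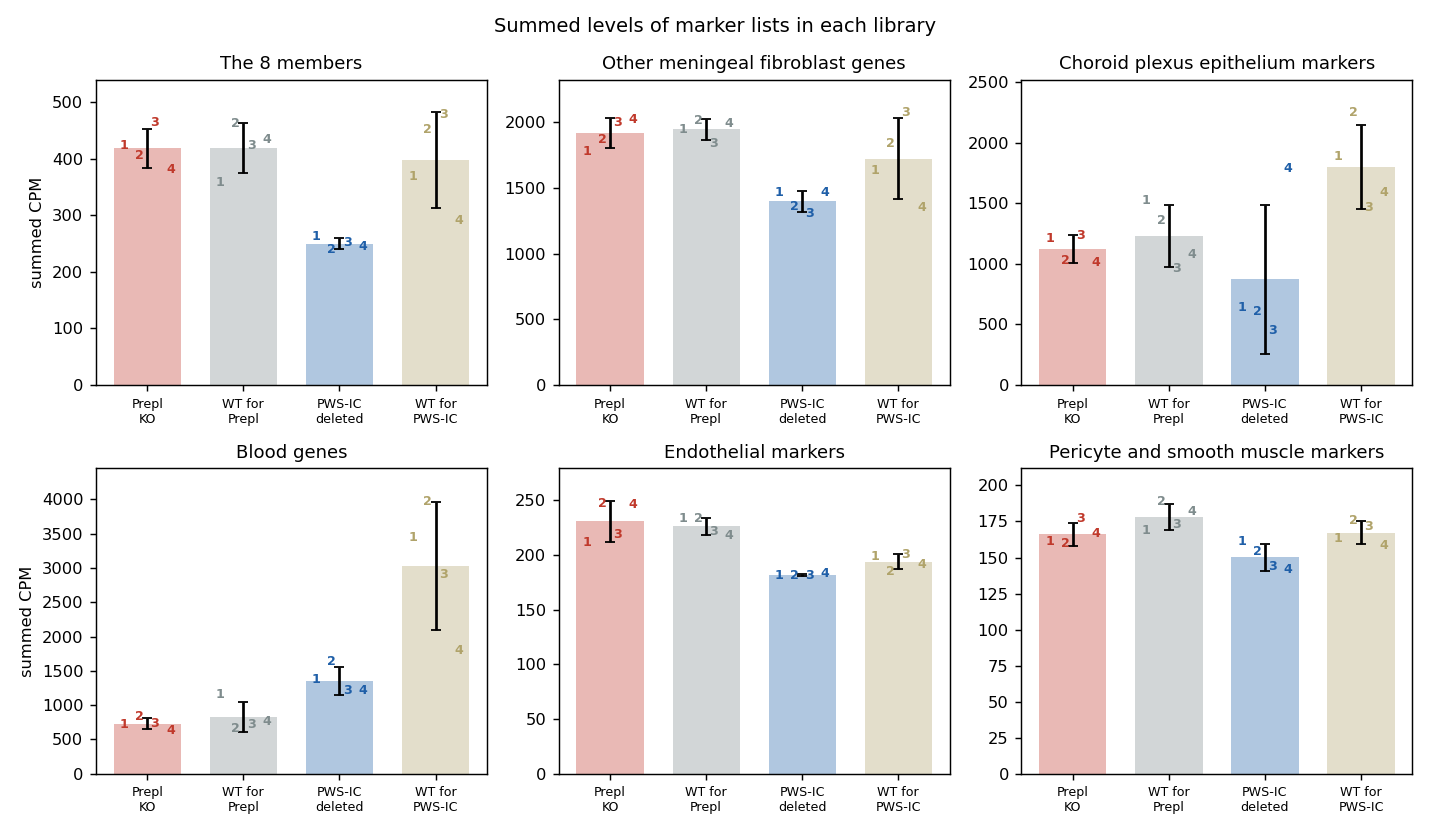
Summed CPM (vertical axis) of the 8 genes and of 5 marker lists in the 4 groups; bars are means, error bars SD over 4 libraries, digits the replicate numbers. The 8 genes sum to 239 to 262 CPM in PWS-IC deleted libraries, against 290 to 477 CPM in their WT. Between the same groups the blood sums do not overlap, and the choroid plexus sums do.

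In Prepl knockout brain none of the 8 genes passed the test. None was called by edgeR, beside 0.262% of 13722 genes tested, and none by DESeq2 or limma voom. The median log2 fold change of the 8 was 0.04, with 2 below 0 beside 49.9% of all genes, and edgeR adjusted p ran from 0.506 to 0.961. The sum of the 8 was 423, 406, 464 and 380 CPM in Prepl knockout libraries, against 357, 462, 423 and 434 CPM in WT libraries. The groups overlapped, with knockout library 3 the highest and WT library 1 the lowest of the 8 libraries, and WT library 1 was the lowest of its group for 6 of the 8.

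Col1a2 averaged 152 ± 19.1 CPM in Prepl knockout libraries and 151 ± 18.5 CPM in WT libraries (SD, n = 4 each), a log2 fold change of 0.04 ± 0.0908 (SE). Col3a1 averaged 71.3 ± 6.99 CPM in knockout and 71.0 ± 14.3 CPM in WT libraries, a log2 fold change of 0.04 ± 0.111. Col1a1 averaged 74.0 ± 6.15 CPM in knockout and 70.8 ± 4.55 CPM in WT libraries, a log2 fold change of 0.10 ± 0.0843. In this fit, which has no term for sex, these standard errors are no wider than those of the PWS-IC comparison, where changes of -0.53 to -0.80 were called. Dcn had a log2 fold change of -0.10 ± 0.117, Bgn 0.08 ± 0.149, Mgp 0.04 ± 0.155 and Slc6a13 0.18 ± 0.126. With sex as a term, the small values of Col1a2, Col3a1 and Bgn turned to -0.01, -0.13 and -0.04. The standard errors of Col1a1, Col1a2 and Col3a1 then widened to 0.139, 0.145 and 0.170.

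Ogn alone of the members had an unadjusted p under 0.05 in the Prepl comparison. It had 13.8, 10.1, 11.7 and 8.14 CPM in Prepl knockout libraries, against 11.5, 20.7, 14.0 and 13.7 CPM in WT libraries. The groups overlapped, and WT library 2 stood above the other 7 libraries. The log2 fold change was -0.42 ± 0.192 (SE, n = 4 each; edgeR adjusted p = 0.506). Among the other lists, from fibrillar collagens to microglia, 1 gene was called in this comparison, Hba-a2, an alpha globin gene, which was lower. It averaged 2.08 ± 0.385 CPM in knockout and 25.9 ± 27.7 CPM in WT libraries (SD, n = 4 each). The groups overlapped, since WT libraries 1 to 4 had 2.43, 48.7, 1.38 and 50.9 CPM. The call was kept in 2 of 8 fits that left out 1 library and made by neither DESeq2 nor limma voom.

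The changes in the 2 models were then set against each other in 1 fit of all 16 libraries, as the PWS-IC change minus the Prepl change. Col1a2 and Col3a1 passed, beside 0.778% of 14392 genes called in either direction and 0.486% called lower. Their differences were -0.78 ± 0.174 (SE; edgeR adjusted p = 0.0219) and -0.84 ± 0.188 (SE; edgeR adjusted p = 0.0227). Col1a1 differed by -0.62 ± 0.160 (SE; edgeR adjusted p = 0.0587) and Dcn by -0.62 ± 0.198 (SE; edgeR adjusted p = 0.164), which did not pass. Slc6a13 (-0.62 ± 0.252), Mgp (-0.61 ± 0.297), Ogn (-0.33 ± 0.338) and Bgn (-0.29 ± 0.217) did not pass either. Igf2 passed as well, at -0.83 ± 0.161 (SE; edgeR adjusted p = 0.00586). The count of members called was 0 without Prepl knockout library 3 and 0 without WT library 3 of the PWS-IC comparison. It was 1 without WT library 3 of the Prepl comparison or PWS-IC deleted library 3 or 4, and 4 without WT library 4 of the PWS-IC comparison. With sex as a term it was 1, Col1a2.

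The 2 WT groups were compared as WT for PWS-IC over WT for Prepl, and they share their samples with the mutant comparisons. Ogn was the 1 member called, beside 23.8% of 13756 genes called in either direction and 12.1% called lower. Its 6.92 to 10.8 CPM in WT for PWS-IC lay wholly below the 11.5 to 20.7 CPM in WT for Prepl, a separation that 14.9% of all genes showed. The log2 fold change was -0.85 ± 0.209 (SE, n = 4 each; edgeR adjusted p = 0.00479). Ogn therefore ran in the order PWS-IC deleted (4.78 ± 1.67 CPM), WT for PWS-IC (8.08 ± 1.82), Prepl knockout (10.96 ± 2.41) and WT for Prepl (14.96 ± 3.96), with neighbours overlapping in their ranges in each case.

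None of the 3 collagen genes was called between the WT groups. Col1a2 had a log2 fold change of -0.01 ± 0.121, Col3a1 0.22 ± 0.136 and Col1a1 -0.25 ± 0.117 (SE, n = 4 each), with edgeR adjusted p of 0.948, 0.256 and 0.134. Leaving out WT for PWS-IC library 4 raised Col3a1 to 0.36 (edgeR adjusted p = 0.0464), and leaving out library 2 of that group moved Col1a1 to -0.33 (edgeR adjusted p = 0.0396). Dcn (0.08 ± 0.138), Bgn (-0.09 ± 0.164), Mgp (-0.16 ± 0.220) and Slc6a13 (-0.15 ± 0.185) were not called. Organic anion carriers of the meninges did differ: Slc22a6 had 7.93 ± 2.31 CPM in WT for PWS-IC and 16.8 ± 3.30 CPM in WT for Prepl (SD, n = 4 each), a log2 fold change of -1.04 ± 0.202 (SE; edgeR adjusted p = 0.000658). Slc22a8 had 13.4 ± 1.84 CPM in WT for PWS-IC and 23.5 ± 4.94 CPM in WT for Prepl, a log2 fold change of -0.77 ± 0.164 (SE; edgeR adjusted p = 0.00160). Of 40 other meningeal fibroblast genes tested, 2 were higher and 6 lower in WT for PWS-IC, a share near that of all genes. The 2 higher genes were Igfbp2 and S100a6. Their log2 fold changes were 0.55 ± 0.0947 (SE, edgeR adjusted p = 0.000233) and 0.65 ± 0.155 (SE, edgeR adjusted p = 0.00385). Blood genes summed to 1799 to 3973 CPM in WT for PWS-IC, against 661 to 1148 CPM in WT for Prepl. Of 11 choroid plexus markers tested, 4 were higher and none lower in WT for PWS-IC, beside 23.8% of all genes called in either direction. Whether blood or choroid plexus bears on the members was not tested.

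Of 26 genes that modify, fold, trim or cross-link collagen, 4 were higher and 2 lower in WT for PWS-IC, a share near the 23.8% of all genes called in that comparison. P4ha1, a prolyl hydroxylase subunit, had 13.0 ± 1.62 CPM in WT for PWS-IC and 7.23 ± 2.23 CPM in WT for Prepl, a log2 fold change of 0.91 ± 0.216 (SE, n = 4 each; edgeR adjusted p = 0.00385). Ppib, a prolyl isomerase of the endoplasmic reticulum, had 155 ± 3.91 CPM in WT for PWS-IC and 110 ± 8.93 CPM in WT for Prepl, a log2 fold change of 0.54 ± 0.0808 (SE; edgeR adjusted p = 5.47e-05). Pcolce2, an enhancer of procollagen cleavage, had 8.35 ± 2.81 CPM in WT for PWS-IC and 4.11 ± 1.16 CPM in WT for Prepl, a log2 fold change of 1.05 ± 0.274 (SE; edgeR adjusted p = 0.00726).

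Ratios within a library do not depend on its depth, and they show how the members moved relative to each other. Bgn reads over Dcn reads gave 0.545, 0.514, 0.670 and 0.652 in PWS-IC deleted libraries, against 0.424, 0.409, 0.371 and 0.476 in WT libraries. All deleted libraries were above all WT libraries, and Dcn had the more negative fold change of the pair. The same ratio was 0.461 to 0.675 in Prepl knockout libraries, against 0.396 to 0.514 in WT, with overlap. Col3a1 over Col1a2 was 0.493 to 0.627 in PWS-IC deleted libraries, against 0.511 to 0.666 in WT, with ranges that overlapped. Col1a1 over Col1a2, the 2 chains of type I collagen, was 0.379 to 0.527 in PWS-IC deleted libraries, against 0.383 to 0.434 in WT. It was 0.445 to 0.522 in Prepl knockout libraries, against 0.435 to 0.501 in WT. The WT for PWS-IC libraries lay wholly below WT for Prepl in that ratio. These ratios are given without a test.

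**Figure D4:**
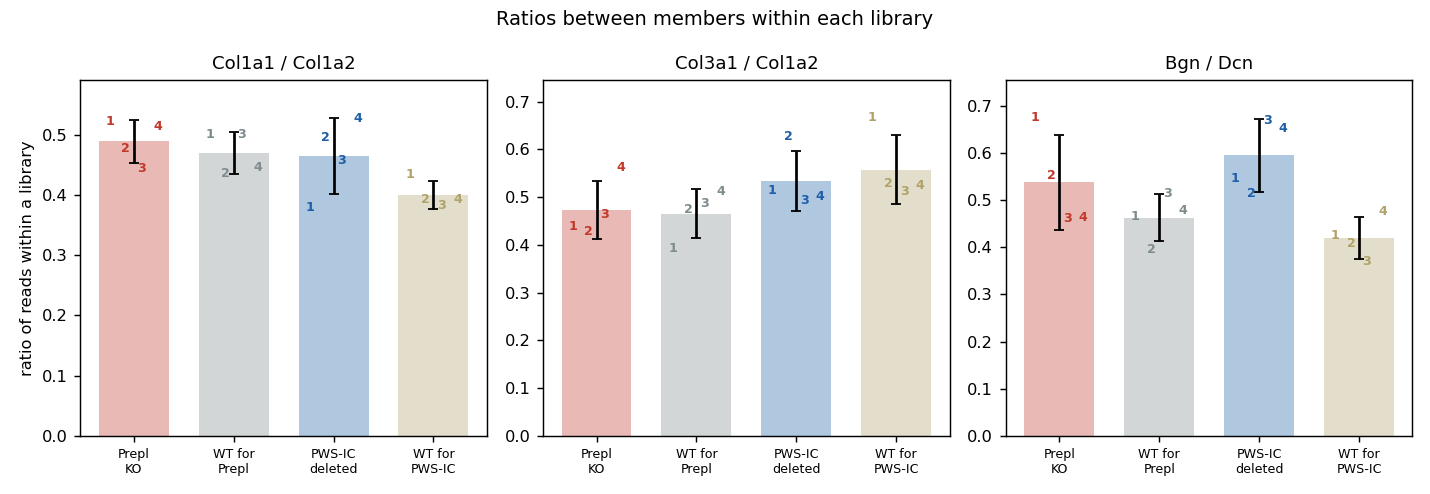
Ratio of reads of one member to those of another within a library (vertical axis, no unit) in the 4 groups; bars are means, error bars SD over 4 libraries, digits the replicate numbers. Bgn over Dcn is 0.514 to 0.670 in PWS-IC deleted libraries, against 0.371 to 0.476 in their WT.

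Across all 16 libraries the members varied by different amounts. The highest library exceeded the lowest by 5.70-fold for Ogn, 3.00-fold for Mgp and 1.85-fold for Bgn, and by 2.13-fold to 2.37-fold for the other 5. Likeness of pattern was measured as the root mean square difference of centred log2(CPM + 0.5) over the 16 libraries, among 11383 genes with a mean of at least 5 CPM, where a small value means a like pattern. Col1a2 was nearest to Igf2 (0.133), then Col1a1 (0.158) and Vtn (0.173), followed by Col3a1 (0.185). Col3a1 and Dcn were nearest to each other (0.147), and Serping1 (0.165) and Pafah1b3 (0.179) followed for Col3a1. For Dcn, Tagln3 (0.152) and Zc3hav1l (0.162) came next.

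Col1a1 was nearest to Kdm2b (0.147), Col1a2 (0.158) and Cspg4 (0.167). Mgp was nearest to Slc6a13 (0.218), Col1a1 (0.221) and Tet1 (0.231). Slc6a13 was nearest to Sec16a (0.201), Dchs1 (0.204) and Rpusd1 (0.208), followed by Col1a1 (0.209). Bgn had no member among its nearest 3, which were Mbd6 (0.121), B930041F14Rik (0.135) and Tada3 (0.149), and Dcn, its nearest member, held rank 1552. Ogn was far from every gene, with Fstl4 (0.300), Isyna1 (0.316) and Vwa1 (0.326) the closest and Col1a2 the closest member at 0.399. The 16 libraries share groups and preparation, so these values describe the libraries only.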

How the data were processed

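RNA of mouse brain was sequenced as Lexogen QuantSeq poly(A) 3′ libraries, per the labels' protocols. The authors deposited, for each of 16 libraries, whole-number counts of reads for 43472 gene symbols. HISAT2, HTSeq and the mm10 build are named in the submitters' processing notes; for versions, annotation and strand setting: not given in the sources used here. The 5 totals that name no gene were left out of library sizes and tests; reads outside genes were 11.4% to 20.1% of each table. From the deposited counts, CPM and edgeR 4.0.16 fits were computed under R 4.3.3: filterByExpr (minimum count 10, minimum total count 15), TMM factors, quasi-likelihood F-tests, and p-values adjusted by Benjamini-Hochberg across every tested gene, called under 0.05. Each comparison used its own 8 libraries; the difference of the mutant changes used all 16. The standard error is the absolute log2 fold change over the square root of F. No pair of replicates was close enough to be 1 library deposited again (lowest chi-square over degrees of freedom 2.43).

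Other settings were RLE factors, no filter, DESeq2 1.42.0, limma 3.58.1 voom, the replicate number or sex as a term, 1 fit of 16 libraries, and leaving out each library. Males alone, females alone and reads thinned to the smallest library were added after seeing the data. The steps were tested on simulated data: of 200 genes changed by 1 on the log2 scale, 200 were recovered for Prepl, 200 for PWS-IC, 198 for the WT groups and 185 for the difference. False calls were 7, 10, 9 and 14 in that order. The changed genes were drawn from well-counted genes, with a common dispersion. Recovery of smaller changes or of genes with few reads was therefore not tested. The 8 members and the 18 other lists were chosen with earlier results of these data known. All members are named. Called genes named from other lists come from those with the smallest p (at most 4 a list and comparison), and not all of those are named. Added to these are 3 genes nearest in pattern per member. Foxc1, Aldh1a2, Bglap2, Runx2, Ptgds, Zic1 and Vim were chosen after their values were seen.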

Additional observations from a re-analysis of the deposited data

Results flagged for a closer look

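Among 32 sets of 4 libraries, 1 for each member and group, 2 held a library far from the other 3 by Dixon's 95% criterion. Chance flags about 1 in 20 groups. Ogn had 10.8 CPM in library 2 of the WT for PWS-IC, against 6.92 to 7.42 CPM in the other libraries of that group. Slc6a13 had 19.5 CPM in library 3 of the WT for Prepl, against 25.2 to 25.5 CPM in the other libraries of that group.

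The change in PWS-IC deleted brain differed from that in Prepl knockout brain for 2 members by a test of the difference itself. It was -0.78 on the log2 scale for Col1a2 and -0.84 for Col3a1. The cell source of either difference was not tested.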

How the results depend on the processing

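PWS-IC deleted against WT gave 3 to 4 called members under all 18 other settings, with Col1a2 and Col3a1 called in each; leaving out 1 library gave 3 to 4. The Prepl comparison gave 0 under all 15. Between the WT groups the count was 1, and leaving out 1 library gave 1 to 2. For the difference of the mutant changes it was 2, but 4 with no filter, 3 with DESeq2 and 1 with sex as a term, and leaving out 1 library gave 0 to 4. The cause of these shifts was not tested.

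With sex as a term the Prepl changes of Col1a2, Col3a1 and Bgn reversed to -0.0097, -0.13 and -0.038. Leaving out 1 library, the Prepl changes ran from -0.037 to 0.12 for Col1a2, -0.083 to 0.11 for Col3a1, -0.018 to 0.24 for Bgn and -0.052 to 0.14 for Mgp. Between the WT groups they ran from -0.11 to 0.11 for Col1a2, -0.0020 to 0.22 for Dcn, -0.19 to 0.063 for Bgn, -0.44 to 0.033 for Mgp and -0.37 to 0.028 for Slc6a13. None of these was called.

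Deviations of same-numbered libraries correlated at -0.03 for 1 pair and 0.12 to 0.14 for the other 3 in the PWS-IC comparison, where libraries 1 and 2 were male and 3 and 4 female in both groups. They correlated at -0.05 to 0.05 in the Prepl comparison and -0.08 to -0.01 between the WT groups. Not every pair exceeded 0.1, and not every library correlated best with its own number, so the numbers were not taken to pair them. With the replicate block the counts of called members were 4, 0, 1 and 2 for PWS-IC, Prepl, the WT groups and the difference, as without it. Counts over all genes moved more: 615 for PWS-IC (362 to 653 leaving out 1 library, 132 to 1120 otherwise), 36 for Prepl (12 to 103 and 6 to 156), 3269 between the WT groups (2441 to 3506 and 2980 to 3552) and 112 for the difference (67 to 134 and 96 to 236). Depth limits Ogn and Mgp most, with 13 and 31 reads in their lowest libraries.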

Other observations

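Between the WT groups, 4 of 19 basement membrane genes tested were lower in WT for PWS-IC and none higher, beside 12.1% of all genes called lower and 23.8% called in either direction. Sparcl1, a matricellular protein that astrocytes make in quantity, had 643 ± 55.8 CPM in WT for PWS-IC and 1164 ± 161 CPM in WT for Prepl (SD, n = 4 each), a log2 fold change of -0.81 ± 0.0930 (SE; edgeR adjusted p = 1.85e-06). Col4a2, a chain of type IV collagen, had 39.99 ± 6.23 CPM in WT for PWS-IC and 59.9 ± 2.15 CPM in WT for Prepl, a log2 fold change of -0.53 ± 0.113 (SE; edgeR adjusted p = 0.00148). Of 11 matrix proteases and inhibitors, 1 was higher and 3 lower. The higher gene was Mmp9, a gelatinase, with 11.7 ± 3.01 CPM in WT for PWS-IC and 6.59 ± 1.54 CPM in WT for Prepl, a log2 fold change of 0.86 ± 0.230 (SE; edgeR adjusted p = 0.00860).

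In PWS-IC deleted brain 1 of 6 oligodendrocyte markers and 1 of 7 microglia markers were called, both lower, beside 1.55% of all genes called lower and 4.51% called in either direction. Cnp, a myelin enzyme, had 20.9 ± 3.08 CPM in deleted libraries and 31.1 ± 2.86 CPM in WT libraries (SD, n = 4 each), a log2 fold change of -0.56 ± 0.142 (SE; edgeR adjusted p = 0.0267). Csf1r, the receptor that microglia need to survive, had 15.8 ± 3.59 CPM in deleted libraries and 24.8 ± 4.60 CPM in WT libraries, a log2 fold change of -0.63 ± 0.173 (SE; edgeR adjusted p = 0.0424). The call of Cnp was kept in 3 of 8 fits that left out 1 library. That of Csf1r was kept in 2 of 8 and was not made by limma voom.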
